A study of Oryza sativa with 10 samples.

Results

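The sites of open chromatin that differed between rice seedlings treated with abscisic acid (ABA) and seedlings kept in light for 24 h were described from ATAC-seq peak lists. Peaks of the 2 ABA lists and the 2 light 24 h lists that overlapped by at least 1 bp were merged into 21714 sites, against 33382 sites when the peaks of all 10 lists of the series were merged. A site was gained when both ABA lists and neither 24 h list had a peak there, lost in the converse case, and kept when all 4 lists had one. This gave 1172 gained (5.4% of all sites), 6127 lost (28.2%) and 10726 kept sites, and 3689 mixed sites with any other pattern. The rule uses whether a peak was called and not how high it was, so a gained or lost site is a peak that passed the limit of the caller on one side alone.

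The plants were whole seedlings of YD6, an indica cultivar, germinated in darkness and then moved to light. The reference seedlings had 24 h of light, and neither the labels nor the methods name a spray for them. The ABA seedlings had the same light and were sprayed with ABA dissolved in DMSO shortly before they were sampled at the 24 h time point. A DMSO spray without hormone was part of the experiment and was not analysed here, so ABA and any effect of the spray cannot be told apart. The other lists of the series came from seedlings in the dark, seedlings with 8 h of light, and 24 h seedlings sprayed with the auxin indole-3-acetic acid (IAA) in DMSO. Reads had been aligned to MSU7.0, a japonica genome, and the part that sequence differences between the subspecies play was not tested. Because no genome or gene annotation of this build was used here, sites are given by position, with no gene names and no sequence, and the tissue label could not be checked against marker genes.

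ABA is a hormone of water stress, seed dormancy and growth arrest. It binds PYR/PYL/RCAR receptors, which then block clade A protein phosphatases, and the SnRK2 kinases that these phosphatases hold back phosphorylate bZIP factors of the ABF/ABI5 type. ATAC-seq reads open chromatin through the Tn5 transposase, which cuts DNA that is not covered by nucleosomes, and sites of regulation by such factors are among the places it cuts.

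The 2 lists of a group were nearly the same data. Where both ABA lists had a single peak at a site, the summit base was identical at 81.2% of sites, and at 46.0% for the 24 h pair, against 3.35% to 3.68% for an ABA and a 24 h list. The chi-square of the tag numbers per site was 0.0114 for the ABA pair and 0.0697 for the 24 h pair, against 0.721 to 0.768 between the groups. Independent counts would give a value of about 1. The lists of each group therefore differed by less than the sampling noise and were counted as 1 sample. The values between the groups were also under 1. On average over sites with a single peak in both lists, tag numbers of ABA and 24 h lists thus differed by no more than this noise either. Both numbers had to pass the limit of a call and were scaled to equal totals, which can lower the value. A mean under 1 therefore does not show that no site changed. No comparison below has a replicate check, so neither p-values nor SDs are printed. Intervals are 95% Wilson intervals for shares and order-statistic intervals for medians. They cover counting error over sites only, and neighbouring sites are not independent.

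The lists differed in length and in the height a call needed. The ABA lists held 13278 and 12659 peaks and the 24 h lists 19746 and 18111. The number of tags over each summit and the local background were solved from the deposited fold and −log10 p-value. The background was a common control scaled to each list, and the scale, called here the relative library size, averaged 0.908 for ABA and 0.701 for 24 h, a ratio of 1.30. At the lowest background of 6 control units, a call needed 16 tags in each ABA list and 13 and 14 tags in the 24 h lists. The study lists read numbers for its libraries, but its peak totals for ABA and 24 h differ from those of the deposited lists, so the depth behind these lists is not established and no read numbers were used.

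Sites lost with ABA far outnumbered sites gained. Of the changed sites, 83.9% were lost (83.1% to 84.8%). Lost sites were 35.3% of the 17352 sites called in both 24 h lists, and gained sites were 9.51% of the 12329 sites called in both ABA lists. Of the mixed sites, 1896 were called in the first 24 h list alone and 485 in the second alone.

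This balance depended on how the lists were made comparable. With every list cut to the 12659 strongest peaks by −log10 q, 2500 sites were gained and 2542 lost, a near balance that equal lengths bring about by construction. A further pair of settings, chosen after the data were seen, required 1.5 times the relative height that every list could reach at the lowest background. With lists scaled to their median tags at kept sites, the limit was 24 tags with ABA and 26 tags at 24 h, and 2175 sites were gained and 2030 lost, a lost share of 48.3%. With lists scaled to library size, the limit was 27 to 28 tags with ABA and 21 tags at 24 h, and 354 sites were gained and 7399 lost, a lost share of 95.4%. The surplus of lost sites was thus not present on the first scale at that height and was larger on the second.

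Kept sites were slightly lower with ABA in tags. The median kept site had 28 tags with ABA and 30 tags at 24 h, and the median log2 ratio of ABA to 24 h tags was -0.09 (-0.10 to -0.09). The ratio was 0.938 in tags and 0.724 per library size. In tags, 60.5% of kept sites were lower with ABA. Strong changes among kept sites were few, with 36 sites at over 2 times the median ratio and 5 at under the inverse of that limit. The rule itself limits these counts, because a site that fell under the limit of a call in either group was not kept. Kept sites whose nearest site was lost had a median log2 ratio of -0.13 (-0.14 to -0.11), and those whose nearest site was gained had -0.02 (-0.05 to 0.02). The heights of kept sites, which passed the limit in all 4 lists, thus differed with the class of the neighbouring site.

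For each changed site a least fold was computed, which is the tags in the lists with a peak over the tags that a call would have needed in the lists without one, each per list scale. It is a lower bound only as far as the scale holds, and a signal narrower than the shortest peak of 100 bp would also go uncalled. With lists scaled to the tags at kept sites, the median least fold was 1.61 for gained and 1.11 for lost sites, and 804 gained and 554 lost sites exceeded 1.5. With lists scaled to library size, the medians were 1.15 and 1.50, and 119 gained and 3061 lost sites exceeded 1.5. At a least fold of 1 or less, no difference in scaled tags is needed for the missing call. On the first scale, 4024 of the 6127 lost sites (65.7%) and all 1172 gained sites exceeded 1. On the second, 6110 lost and 958 gained sites (81.7%) did. Past a least fold of 2 there were 152 gained and 26 lost sites on the first scale, and 22 and 589 on the second. Which class held more strongly changed sites was therefore decided by the scale.

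The strongest gained sites stood far above any other list. The 6 gained sites of highest least fold lay on chromosomes 2, 4, 3, 6, 10 and 7, with a least fold of 4.74 to 5.74 on the scale of tags at kept sites and of at most 4.27 on that of library size. On chromosome 2, the site from 27933060 to 27934315 had 80 and 75 tags in the ABA lists, no peak in the dark, 24 h or IAA lists, and 17 tags in the second 8 h list alone. It was 1256 bp wide, and the nearest site was 17699 bp away. On chromosome 4, the site from 20688157 to 20688510 had 71 and 68 tags with ABA and 16 tags in each 8 h list, and a lost site lay 153 bp from it. Only these 2 of the 6 had a peak in any list outside ABA.

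The other 4 were called in the ABA lists alone. The site on chromosome 3 from 5858687 to 5859616 had 68 and 67 tags, and the site on chromosome 6 from 696429 to 696669 had 76 in each list. On chromosome 10, the site from 8908080 to 8908424 had 92 and 89 tags over a background of 10.0 control units, where a call needed 18 and 19 tags at 24 h. On chromosome 7, the site from 8187808 to 8188277 had 64 and 62 tags and a gained nearest site. None of the 6 lay within 1 kb of a site of 1 kb or more, the nearest such site being 20952 bp away.

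The strongest lost sites showed the opposite pattern, being present in nearly every group but ABA. The 6 lost sites of highest least fold lay on chromosomes 8, 7, 2, 12, 10 and 12, with a least fold of 2.28 to 2.63 on the scale of tags at kept sites. On chromosome 8, the site from 2029522 to 2029669 had 46 and 45 tags at 24 h, 36 and 35 in the dark, 40 and 43 at 8 h, and 38 and 41 with IAA. No ABA list had a peak there, where 16 tags would have been called. On chromosome 2, the site from 6925339 to 6925492 had 46 and 41 tags at 24 h, 38 in each dark list, 50 and 52 at 8 h, and 48 and 49 with IAA.

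The site on chromosome 7 from 27839978 to 27840409 had 42 and 43 tags at 24 h, 27 and 26 in the dark, 40 and 39 at 8 h, and 31 and 34 with IAA. On chromosome 10, the site from 20368219 to 20368367 had 39 tags in each 24 h list and 26 to 34 tags in the 6 lists outside the comparison. The site on chromosome 12 from 2214796 to 2215126 had 39 and 40 tags at 24 h, 27 in each dark list, 42 in each 8 h list and 38 in each IAA list. All 5 of these sites were thus called in all 8 lists other than those of ABA. The exception, also on chromosome 12, from 8529613 to 8529738, reached 58 and 60 tags at 24 h, 41 and 45 in the dark and 43 and 46 at 8 h. It had no peak with IAA either and lay 215 bp from a site of 1 kb or more.

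**Figure D1:**
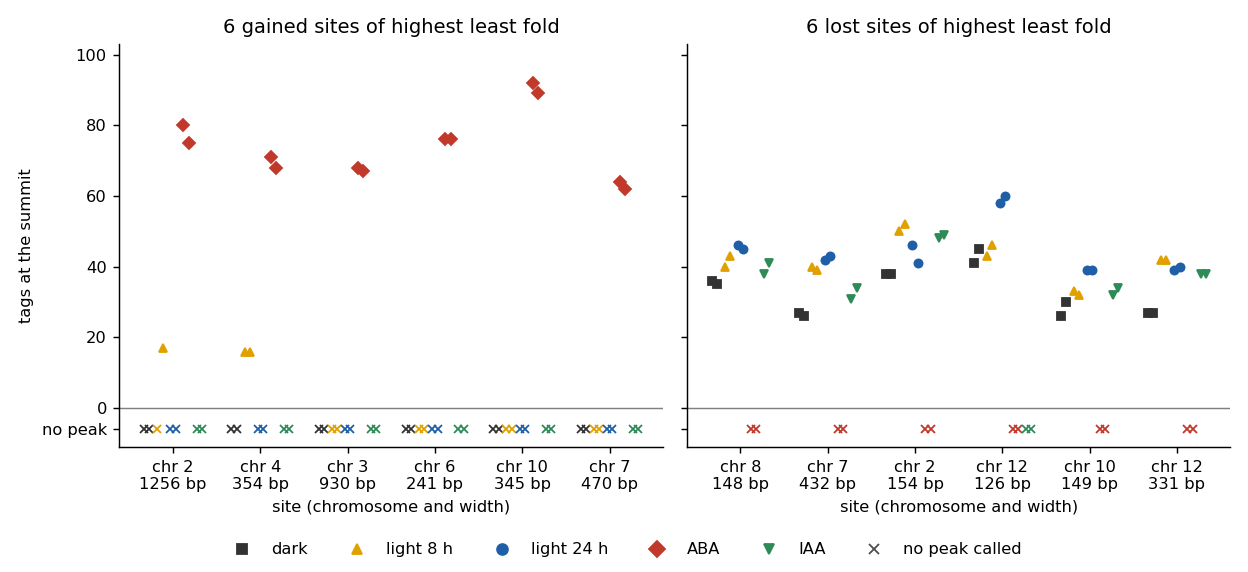
Tags at the summit (vertical axis) in each of the 10 lists at the 6 gained sites (left) and 6 lost sites (right) of highest least fold. Each point is 1 list, and crosses below 0 mark lists with no peak called, which is not a level of 0. The gained sites reach 62 to 92 tags with ABA and have at most 17 tags elsewhere, while the lost sites have 26 to 60 tags in nearly every list outside ABA.

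Changed sites were low and narrow peaks. Gained sites had a median of 23 tags with ABA and a median width of 139 bp (136 to 143.5 bp). Lost sites had a median of 22 tags at 24 h and a width of 165.5 bp (163.5 to 167.5 bp). Kept sites had 28 tags and a width of 216.5 bp (214 to 218.5 bp) with ABA and 30 tags and 261 bp (258 to 264 bp) at 24 h, so that kept peaks were also narrower with ABA. Peaks of 500 bp or more were 1.37% of gained and 0.62% of lost sites, against 6.38% of kept sites with ABA and 10.7% at 24 h. Of the gained sites, 281 (24.0%) lay within 2 tags of the limit of their list, and of the lost sites 942 (15.4%).

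Width differed between lost and kept sites of the same height too. Among sites of over 22 to 26 tags at 24 h, the median width was 170 bp for 1660 lost and 211 bp for 1991 kept sites. Among those of over 30 to 40 tags it was 215.5 bp for 344 lost and 301.5 bp for 3162 kept sites. Gained sites hardly widened with height, from 133 bp at up to 18 tags to 137 bp at over 26 to 30 tags, where kept sites in the ABA lists measured 212.5 bp. Lost sites were narrower than kept ones in each class of height, and so were gained sites. By rule, however, kept sites needed overlapping peaks in all 4 lists, and no peak was shorter than 100 bp. Wider peaks may meet this more easily, and the part of the rule in these widths was not tested.

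The highest gained sites were a group of their own. The 29 gained sites of over 40 tags had a median width of 305.5 bp, close to the 334 bp of the 1388 kept sites of that height in the ABA lists, and 10 of them were 500 bp or wider. By contrast, the 23 lost sites of over 40 tags had a median width of 151 bp and stood over a median background of 16.0 control units, against 7.0 for the 29 gained sites. A background of that size raises the number of tags that a call needs. Within 1 kb of a site of 1 kb or more lay 2 of the 29 gained and 2 of the 23 lost sites.

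**Figure D2:**
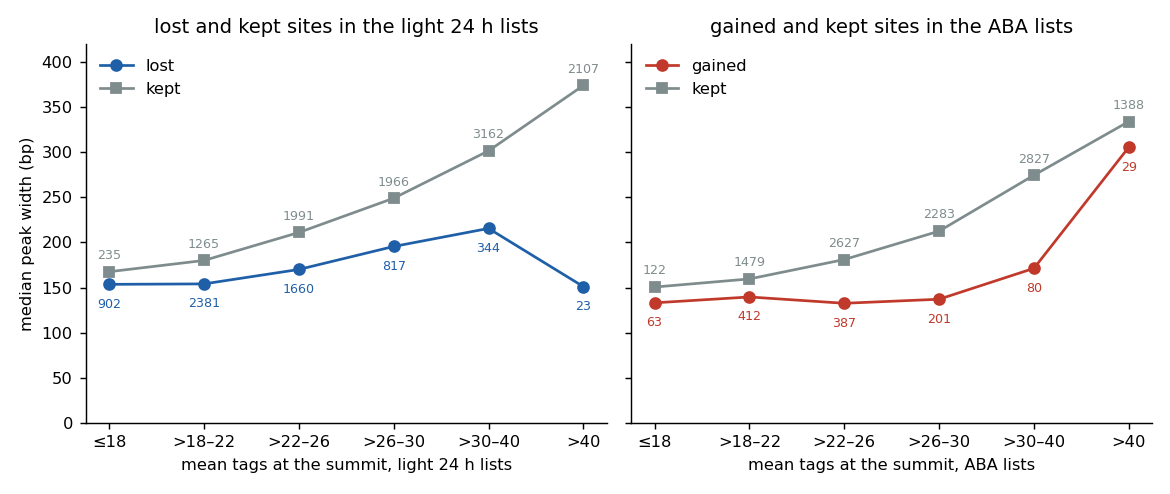
Median peak width in bp (vertical axis) by tags at the summit (horizontal axis), for lost and kept sites in the 24 h lists (left) and gained and kept sites in the ABA lists (right). Numbers beside the points count sites. Kept sites widen steadily with height, lost sites reach 215.5 bp and gained sites stay near 139 bp up to 30 tags and reach 305.5 bp over 40 tags.

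The dark, 8 h and IAA lists took no part in the rule and were read at the same sites. Of the lost sites, 73.0% (71.9% to 74.1%) were called in both dark lists, 68.3% (67.1% to 69.5%) in both 8 h lists and 73.4% (72.3% to 74.5%) in both IAA lists. Of the kept sites, these shares were 96.6%, 92.8% and 96.3%. All 3 groups had called 49.0% of the lost and 88.9% of the kept sites, and no list of the 3 groups had a peak at 4.68% of the lost sites. At the lowest background a call needed 16 tags in an ABA list and 13 in an IAA list, and the part of this difference in the shares was not tested.

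Lost sites were less often called elsewhere than kept sites of equal height. At over 22 to 26 tags, 80.1% of lost and 94.3% of kept sites were called in both IAA lists. At over 30 to 40 tags these shares were 93.9% and 99.3%. The share of lost sites called in both IAA lists went from 50.6% at up to 18 tags to 93.9% at over 30 to 40 tags. The difference from kept sites was thus present within these classes of height. By rule, however, kept sites had passed the limit in the ABA lists as well and lost sites had not. The rule thus favours higher shares for kept sites, at equal height as over all heights.

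Gained sites were called elsewhere less often than other sites, and least often at 8 h. Both dark lists had called 60.2% of the gained sites (57.3% to 62.9%) and both IAA lists 51.5% (48.7% to 54.4%), but both 8 h lists only 26.5% (24.1% to 29.1%). Over all 21714 sites, these shares were 81.3% in the dark, 80.6% with IAA and 74.4% at 8 h. All sites include the kept sites, which by rule had passed the limit in both ABA and 24 h lists. For lost sites of up to 18 tags at 24 h, the shares were 53.7% in the dark, 50.6% with IAA and 45.7% at 8 h. Of the gained sites, 10.4% were called in the dark alone and 16.8% in no other list. The dark lists were the longest of the series. At the lowest background, the limit of a call was 11 tags for dark, 13 to 14 for 8 h and 13 for IAA. The 8 h lists held 20560 and 19864 peaks and the IAA lists 23089 and 23778. The part of the limits and of list length in these shares was not tested. Neither 8 h list had a peak at 64.5% of the gained sites, and 17.0% were called in both dark and both IAA lists but in neither 8 h list, against 6.79% of lost and 3.19% of kept sites.

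This pattern did not extend to the highest gained sites. At over 26 to 30 tags with ABA, 70.6% of 201 gained sites were called in both dark lists, 26.9% in both 8 h lists and 60.2% in both IAA lists. At over 40 tags, each of these groups had called 2 of 29 sites in both its lists, a share of 6.90% (1.91% to 22%), and 21 of the 29 were called in no list outside ABA. For lost sites the counts at over 40 tags were 19 of 23 in the dark, 18 at 8 h and 20 with IAA, and none of the 23 lacked a peak in all other lists.

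**Figure D3:**
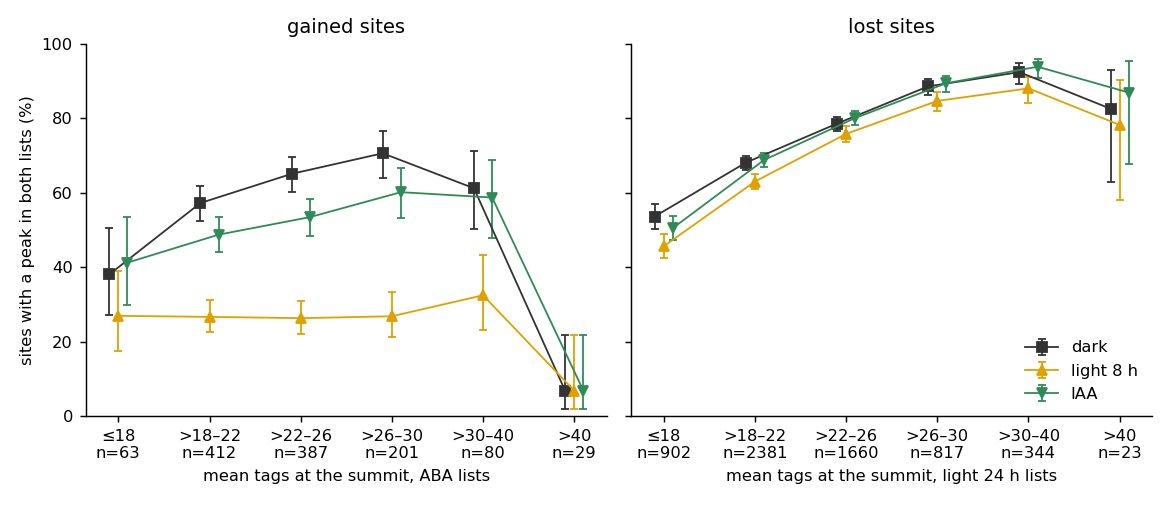
Percent of gained sites (left) and lost sites (right) with a peak in both lists of dark, light 8 h or IAA (vertical axis), by tags at the summit in the ABA or 24 h lists (horizontal axis, with n sites). Bars are 95% Wilson intervals. At lost sites the IAA share goes from 50.6% at up to 18 tags to 93.9% at over 30 to 40 tags and is 87.0% at over 40 tags, while at gained sites the share is 70.6% in the dark at over 26 to 30 tags and 6.90% at over 40 tags.

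Spacing differed little between the classes for most sites. The median gap to the nearest site was 3537.5 bp (3253 to 4021 bp) for gained, 3105 bp (2942 to 3252 bp) for lost and 3189.5 bp (3059 to 3309 bp) for kept sites. The classes parted at long gaps. More than 20 kb from any other site lay 14.3% of gained sites, 5.17% of lost sites and 7.59% of kept sites. Among all 1556 sites so isolated, 10.8% (9.35% to 12.4%) were gained and 20.4% (18.4% to 22.4%) were lost, against 5.4% and 28.2% of all sites.

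Gained sites clustered at short range. The nearest site of a gained site was itself gained in 12.4% of cases (10.6% to 14.4%), against 5.4% of all sites. This share was 22% (16.9% to 28.0%) where the nearest site was within 500 bp, 16.0% at 500 bp to 2 kb and 7.55% at 2 to 5 kb. For kept sites with a neighbour within 500 bp, that neighbour was gained in 4.68% of cases. Clustering was closest at the highest gained sites: the nearest site was gained at 14 of the 29 sites of over 40 tags, and at 10.2% of the 412 sites of over 18 to 22 tags. Of these 29 sites, 13 lay within 500 bp of another site, against 18.3% of all gained sites, so the 29 may not be separate loci.

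Lost sites clustered too, with no preferred distance. Their nearest site was lost in 33.9% of cases (32.7% to 35.1%), against 28.2% of all sites and against 25.9% (25.1% to 26.7%) for the neighbours of kept sites. The share was 33.5% within 500 bp and 34.8% at 5 to 20 kb. With lists of equal length, where the classes were of similar size, it was 20.3%, against 15.1% of all sites. For gained sites these shares were then 21.9% and 14.8%. At 1.5 times the common height on median tags at kept sites, they were 23.6% against 16.2% for lost and 24.5% against 17.3% for gained sites. Which class clustered more strongly was not tested. The lost and gained shares also varied along the chromosomes, and the part of this in the shares of neighbours was not tested either. A gained site was the nearest site of 3.72% of lost sites, and a lost site was the nearest of 18.6% of gained sites, both under the shares of these classes among all sites. Within 500 bp, 24.8% of gained sites with so close a neighbour had a lost one, against 25.1% of such kept sites.

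**Figure D4:**
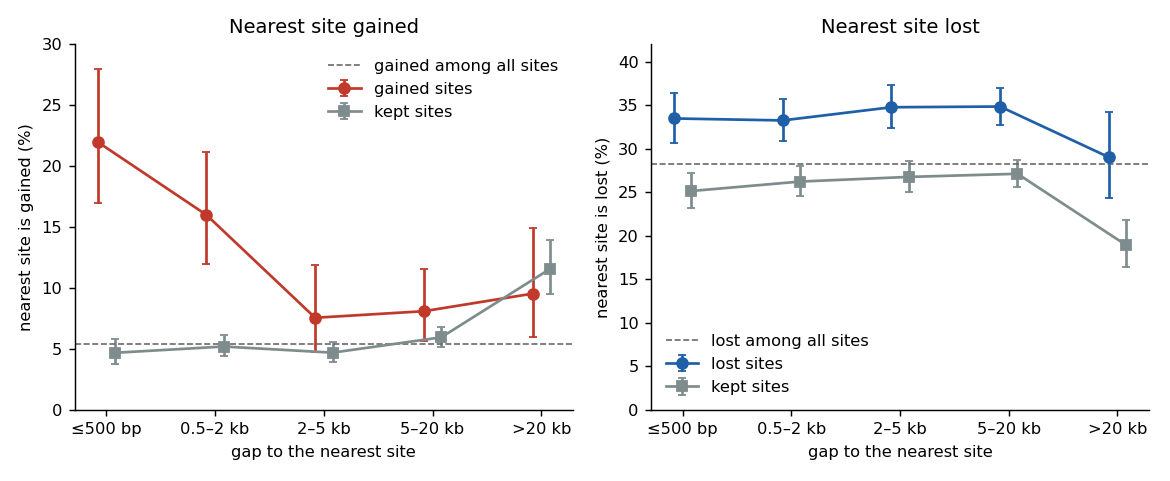
Percent of sites whose nearest site was gained (left) or lost (right), by the gap to that site (horizontal axis), for changed and for kept sites. Bars are 95% Wilson intervals and the dashed line is the share of the class among all sites. Gained sites stand above kept sites up to 2 kb, with 22% within 500 bp, while lost sites lie between 29.0% and 34.8% at every gap.

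Consecutive sites of one class formed runs, whose number also depends on how common the class is. Runs of at least 2 lost sites numbered 1328 and held 55.1% of the lost sites, and such runs of gained sites numbered 104 and held 19.5% of the gained sites. For kept sites, the most common class, the share in runs was 75.2%. The longest lost run had 10 sites and spanned 134 kb on chromosome 8, from 27403912 to 27537993, with 15 to 27 tags per site at 24 h. Of its 10 sites, 9 were called in both IAA lists, 7 at 8 h and 6 in the dark. The next longest runs had 7 sites, of which there were 4. One spanned 16.1 kb on chromosome 1, from 36646615 to 36662719, and another 46.6 kb on chromosome 6, from 2233715 to 2280290.

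The longest gained runs had 4 sites, and there were 3 of them. On chromosome 2, from 30096310 to 30098582, 4 gained sites with 30 to 51 tags lay within 2.27 kb. On chromosome 3, from 23525846 to 23528137, 4 gained sites with 24 to 31 tags lay within 2.29 kb. At both of these short runs no site was called in both lists of dark, 8 h or IAA. The third run was of another kind, spanning 105 kb on chromosome 10 from 7008565 to 7113177, and 3 of its sites were called in the dark and 4 with IAA.

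Along the chromosomes, lost and gained sites had opposite slopes. The outermost peaks of all 10 lists on each chromosome were taken as its ends. Within 2 Mb of a chromosome end, 33.8% (32.3% to 35.4%) of 3485 sites were lost and 3.56% (2.99% to 4.23%) gained. More than 10 Mb from an end, 22.1% (21.1% to 23.1%) of 6638 sites were lost and 7.37% (6.76% to 8.02%) gained. By chromosome, the lost share went from 22.2% on chromosome 11 to 31.2% on chromosome 3, and the gained share from 4.31% on chromosome 9 to 6.86% on chromosome 10. For both classes the difference from end to middle was larger than the range over the chromosomes.

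The density of sites followed the same order. In 1 Mb windows with fewer than 20 sites, 15.8% (12.8% to 19.4%) of sites were lost and 13.7% (10.9% to 17.1%) gained. In windows with 80 to 99 sites, 33.1% (31.9% to 34.3%) were lost and 3.87% (3.41% to 4.4%) gained. The kept sites of the sparsest windows had a median log2 ratio of ABA to 24 h tags of 0.08 (0.02 to 0.11), and those of windows with 80 to 99 sites had -0.13 (-0.14 to -0.11). In tags, kept sites were thus higher with ABA in the sparsest windows and lower in the dense ones. Per library size both medians were below 0, at -0.29 and -0.50, and the difference between the windows was the same.

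**Figure D5:**
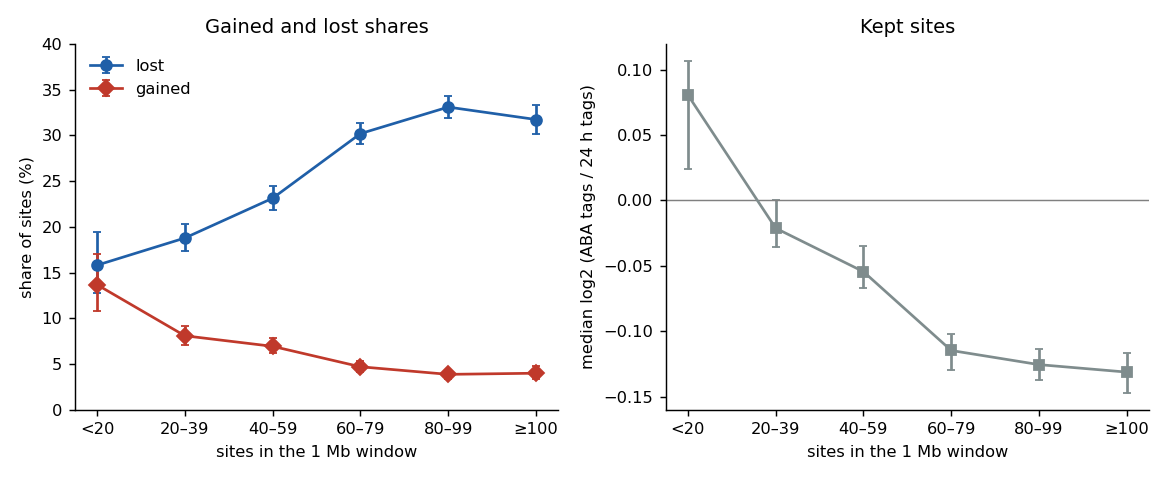
Percent of sites lost and gained (left) and median log2 ratio of ABA to 24 h tags at kept sites (right), by the number of sites in the 1 Mb window (horizontal axis). Bars are 95% intervals. From windows of under 20 sites to windows of 80 to 99 sites, the lost share goes from 15.8% to 33.1%, the gained share from 13.7% to 3.87% and the kept ratio from 0.08 to -0.13.

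The slope was present at equal peak height in tags, with the local background not matched. Among sites called in both 24 h lists with over 18 to 22 tags, 45.2% were lost in windows of under 40 sites and 68.3% in windows of 80 or more. At over 26 to 30 tags these shares were 17.8% and 33.6%. Among sites called in both ABA lists with over 22 to 26 tags, 19.8% were gained in windows of under 40 sites and 8.72% in windows of 80 or more. At over 40 tags no such order was seen, with 0.72% and 0.68% of sites lost and 1.14% and 2.38% gained. The background differed with density as well. It was at its lowest level at 46.20% of all sites in windows of under 40 sites and at 39.01% in windows of 80 or more. A higher background raises the number of tags that a call needs, and the part of this in the slope was not tested.

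The lost and gained sites also add to the density of a window. Density was counted again from the merged dark, 8 h and IAA peaks alone, which was added after the data were seen. Only 4.68% of lost and 16.8% of gained sites had no peak in any of these lists. Most changed sites thus still add to this density, and the recount cannot remove their part. In the windows with up to 61 such sites, 17.1% (15.9% to 18.4%) of sites were lost and 9.36% (8.42% to 10.4%) gained. In the windows with over 109 such sites, 32.8% (31.9% to 33.6%) were lost and 3.92% (3.58% to 4.30%) gained. Whether the lost share sloped with density, and by how much, depended on how the lists were made comparable. With lists of equal length, 11.1% of sites were lost in windows of under 40 sites and 14.8% in windows of 80 or more, and 18.5% and 12% were gained. At 1.5 times the common height with lists scaled to tags at kept sites, 14.3% of sites were lost in windows of under 40 sites and 14.4% in windows of 80 or more, while 19.5% and 8.75% were gained. With lists scaled to library size, 35.8% and 47.6% were lost and 3.59% and 1.19% gained.

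Windows were classed in the same way in 2 other comparisons of the series, each by its own sites. Both share the 24 h lists with the ABA comparison, so that their slopes are not independent of it. From 24 h to IAA, 4.92% of sites were lost in windows of under 40 sites and 4.98% in windows of 80 or more, and 16.8% and 16.1% were gained. From 8 h to 24 h, 6.57% and 14.7% were lost and 11.6% and 7.0% gained. With ABA these shares were 18.3% and 32.6% lost and 8.91% and 3.92% gained. Values thus sloped with ABA and from 8 h to 24 h and were level with IAA, and the difference between comparisons was not tested.

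Single windows ranged widely. Among 344 windows of 1 Mb with at least 20 sites, the median lost share was 27.3%. It was highest on chromosome 8 from 27 to 28 Mb, where 39 of 76 sites (51.3%, 40.3% to 62.2%) were lost and 2 gained, and this window holds the run of 10 lost sites. Next were chromosome 7 from 26 to 27 Mb, with 30 of 59 sites lost and 0 gained, with a Wilson upper bound of 6.11%, and chromosome 8 from 26 to 27 Mb, with 27 of 54. Between 11 and 29 sites were kept in these 3 windows.

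At the other extreme, 1 of 40 sites was lost and 10 gained (25%, 14.2% to 40.2%) on chromosome 10 from 7 to 8 Mb, the window of the third gained run. On chromosome 9 from 2 to 3 Mb, 1 of 38 sites was lost and 3 gained, and on chromosome 2 from 14 to 15 Mb, 1 of 33 was lost and 2 gained. The window with the highest gained share was on chromosome 7 from 8 to 9 Mb, where 8 of 27 sites were gained and 2 lost, and it holds 1 of the 6 strongest gained sites. These windows were picked as extremes of 344, and their intervals do not allow for that choice.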

How the data were processed

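The study made ATAC-seq libraries from rice seedlings. The authors trimmed the reads, aligned them to MSU7.0 with Bowtie2 (2.3.2), filtered them with SAMtools (1.9) and called peaks with MACS2, whose version and control are not given in the sources used here. No shift for the Tn5 cut was described. Each deposited list gives peak positions, a score (not used), a ratio, namely the fold enrichment over background, and the −log10 of the p-value and q-value. The lowest deposited −log10 q was about 2.

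In MACS2 the fold is (tags + 1)/(background + 1) and the p-value is the Poisson tail of the same numbers, so each peak was solved for its tags and background. The solver and the rules for sites were tested on simulated data. Python 3.11.15, NumPy 2.4.6, pandas 2.3.3 and SciPy 1.17.1 were used. Height classes use the mean tags of both lists of a group. Named items were the 6 gained and 6 lost sites of highest least fold (ties by chromosome order), the 3 longest runs of each class, and the 3 windows of 1 Mb with the highest and lowest lost share among those of at least 20 sites. The window of highest gained share was added after its value was seen. The sites and rules were chosen with earlier results of these data known. With n = 1 per group, no test was run. Alternatives were a stricter −log10 q, other rules of overlap and presence, lists of equal length, common heights and each list left out.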

Additional observations from a re-analysis of the deposited data

How the results depend on the processing

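More sites were lost than gained under the alternatives other than 1.5 times the common height on the scale of tags at kept sites, where the order turned, and lists of equal length, where the counts were even by construction. Lost and gained peaks were narrower than kept peaks, and changed sites had a neighbour of their own class more often than the share of that class among all sites, under all 17. No paired analysis was possible because the results come from no test and the lists of a group count as 1 sample. Position relative to genes and sequence at summits were planned and not analysed here, since no annotation or genome of the build was used. The deposited lists hold no reads outside peaks, the depth behind them is not established, and causes of the changes below were not tested.

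With −log10 q of at least 5, the lost share of changed sites was 87.1%, the median width 196 bp at lost and 153 bp at gained sites, the share of lost sites with a lost nearest site 40.9%, and that called in both IAA lists 86.7%. With peaks covering at least 50% of a site, the widths were 180.5 and 146 bp and the lost and IAA shares 38.9% and 76.9%. With summits matched within 200 bp, the lost share of changed sites was 80.9%, the widths 168.5 and 152 bp, the IAA share 71.6% and the share of gained sites with a gained nearest site 10.3%. With presence in either list, the lost share was 85.4%, the widths 150.5 and 134 bp, the nearest lost share 46.4% and the IAA share 65.9%.

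With lists of equal length (2500 gained, 2542 lost, 50.4% lost), the widths were 176 bp at lost and 153.5 bp at gained sites, the nearest lost share 20.3%, the nearest gained share 21.9% and the IAA share 85.6%. At the common height, the lost share was 84.9% on the scale of library size, 79.5% on that of median tags and 79.5% on that of summed tags at kept sites. On both of the latter scales lost peaks were 168.5 bp wide, and the nearest lost and IAA shares were 31.5% and 76.9%, and 31.6% and 76.9%. At 1.5 times the common height on median tags (2175 gained, 2030 lost, 48.3% lost), the widths were 227.5 and 165 bp, the nearest lost share 23.6%, the nearest gained share 24.5% and the IAA share 93.8%. On library size (354 gained, 95.4% lost), the widths were 208 and 165 bp, the nearest lost share 51.5% and the IAA share 89.7%.

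Omitting single lists gave 1225 to 1505 gained and 6202 to 8062 lost sites, a lost share of 81.5% to 86.2%, widths of 154 to 167 bp at lost and 135 to 140.5 bp at gained sites, a nearest lost share of 34.3% to 45.1%, a nearest gained share of 12.5% to 14.3% and an IAA share of 67.0% to 74.5%.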
